A study of Mus musculus with 28 samples.

Results

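MOZ-TIF2 joins the histone acetyltransferase MOZ to the nuclear receptor coactivator TIF2, and the wide stretches of chromatin it occupied under a Ty1 epitope tag in mouse cells are described here. The deposited Ty1 chromatin immunoprecipitation (ChIP) lists hold 3676 peaks for replicate 1 and 4564 for replicate 2. A replicate 1 peak was taken as a wide shared peak when it overlapped a replicate 2 peak by at least 1 bp and was at least 1500 bp wide. This gave 447 of the 3303 shared peaks, and the other 2856 shared peaks were narrower. The width in replicate 1 chose the peaks, so it is given as a description only.

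All cells came from C57Bl/6 mouse bone marrow enriched for c-Kit+ hematopoietic stem and progenitor cells (HSPCs), and no age is given in the labels. For ChIP (n = 2), these cells carried Ty1.MOZ-TIF2 from a retrovirus, were sorted for GFP and were replated serially in methylcellulose. For bulk RNA, Ty1.MOZ-TIF2 cells were sorted for GFP and kept 4 days in cytokine medium (n = 2). Cells with the empty vector, sorted and kept the same way, are labelled differentiated (n = 2), and c-Kit+ cells taken without culture are called fresh (n = 2). ChIP and bulk RNA thus come from MOZ-TIF2 cells cultured differently. Single MOZ-TIF2 cells, replated in methylcellulose like those for ChIP, were read after 1 and 5 days with 5 µM of benzarone, which blocks EYA phosphatase activity, or with the solvent DMSO. Nothing says that the replicates came from separate animals or cultures, so p-values measure only the spread between these samples, which may be technical.

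MOZ (KAT6A) acetylates histone H3 in a complex with BRPF proteins, and TIF2 (NCOA2) brings in the acetyltransferases CBP and p300. The fusion is found in acute myeloid leukaemia and lets mouse progenitors be replated serially. Wide domains of chromatin regulators are known at genes of cell identity, such as the HOXA cluster and its cofactor MEIS1, which keep myeloid progenitors immature.

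The label of the replicate 2 Ty1 library carries the catalogue number given for the antibody against acetylated histone H3 (H3K9/14ac), and replicate 1 carries another, so which antibody made the replicate 2 list is unsure. Replicate 2 entered the choice of peaks only as the overlap, and without that condition there were 458 peaks of this width. The replicate 2 widths given below carry the same doubt, and would not repeat a Ty1 measurement if the H3K9/14ac antibody was used. The bulk libraries held 12397486 to 34463851 estimated counts. Values below are CPM, a library's counts scaled to a common total after TMM normalization. Kit itself read 35.0 ± 8.49 CPM in MOZ-TIF2, 159.5 ± 30.1 in fresh and 4136 ± 188 in differentiated cells (SD, n = 2 each). The differentiated libraries also held 60394 and 90293 CPM over 11 mast cell and basophil markers, against 13.0 to 243.6 in the other libraries. The fresh libraries held 5818 and 7721 CPM over 12 erythroid markers, against 4.62 to 73.1 elsewhere. Over 10 B lymphoid markers the fresh libraries held 1447 and 1891 CPM, against 7.21 to 117 elsewhere. The part of these cell types in the differences below was not tested. In bulk samples, fewer cells of a type and less RNA per cell cannot be told apart.

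Stretches before 6 gene starts that lie wholly inside wide shared peaks show what such peaks span, from homeobox genes to an immune gene of a repeated family. Each runs 5′ to 3′ on the gene's strand over the 200 bases before the annotated start (RefSeq, GRCm38.p6), with every CG dinucleotide in capitals. They are the Nkx2-3 start at chr19:43612125-43612324 (plus strand), Meis1 at chr11:19018970-19019169 (minus), Hoxa7 at chr6:52218574-52218773 (minus), Gfi1 at chr5:107725806-107726005 (minus), Igf2bp3 at chr6:49214955-49215154 (minus) and Sp140 at chr1:85600503-85600702 (plus).
Nkx2-3: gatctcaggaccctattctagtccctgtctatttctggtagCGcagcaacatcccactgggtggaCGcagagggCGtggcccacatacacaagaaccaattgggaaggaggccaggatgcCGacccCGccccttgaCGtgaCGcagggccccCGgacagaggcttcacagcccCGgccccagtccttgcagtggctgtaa
Meis1: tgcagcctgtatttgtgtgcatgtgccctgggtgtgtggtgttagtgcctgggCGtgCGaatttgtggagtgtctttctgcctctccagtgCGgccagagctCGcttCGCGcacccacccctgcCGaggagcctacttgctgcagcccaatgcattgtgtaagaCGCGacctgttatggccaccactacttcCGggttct
Hoxa7: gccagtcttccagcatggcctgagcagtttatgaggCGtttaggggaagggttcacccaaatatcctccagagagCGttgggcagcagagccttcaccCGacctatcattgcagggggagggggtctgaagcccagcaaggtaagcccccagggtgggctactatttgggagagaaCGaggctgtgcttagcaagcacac
Gfi1: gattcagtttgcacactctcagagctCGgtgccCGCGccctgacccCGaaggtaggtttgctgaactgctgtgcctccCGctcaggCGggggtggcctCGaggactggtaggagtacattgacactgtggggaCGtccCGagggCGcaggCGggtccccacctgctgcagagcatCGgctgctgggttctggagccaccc
Igf2bp3: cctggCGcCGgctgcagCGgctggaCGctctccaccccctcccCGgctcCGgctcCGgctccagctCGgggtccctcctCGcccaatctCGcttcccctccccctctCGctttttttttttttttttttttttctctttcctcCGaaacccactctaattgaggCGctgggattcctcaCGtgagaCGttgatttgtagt
Sp140: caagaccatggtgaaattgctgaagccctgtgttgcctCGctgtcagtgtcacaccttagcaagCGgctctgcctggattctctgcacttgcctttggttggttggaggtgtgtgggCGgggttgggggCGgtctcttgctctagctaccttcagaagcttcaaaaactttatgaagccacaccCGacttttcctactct
The Igf2bp3 stretch held 15 CG dinucleotides, Gfi1 12, Meis1 10, Nkx2-3 9, Sp140 5 and Hoxa7 4. The Sp140 start used here lies inside the gene, which begins at chr1:85587491.

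Most peaks that were wide in replicate 1 met a wide peak in replicate 2. The wide peaks had a median width of 2100 bp in replicate 1 (interquartile range 1700 to 2925, highest 19400), and they made up 39.9% of the length covered by shared peaks. The widest overlapping replicate 2 peak had a median of 2550 bp (1850 to 4400), a measure the rule did not use, against 750 bp (500 to 1100) for the narrower shared peaks. It reached 1500 bp for 400 of 447 wide peaks (89.5%) and for 359 of 2856 narrower ones (12.6%). Replicate 2 covered 268 of the 447 wide peaks whole. A wider interval can overlap more replicate 2 peaks, and these widths were not adjusted for that. At the threshold the division is gradual: 28 shared peaks were 1500 bp wide, among them one beside Pign and Relch and one beside Slc36a1, and 42 were 1450 bp wide, among them one beside Thap4 and Atg4b.

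**Figure D1:**
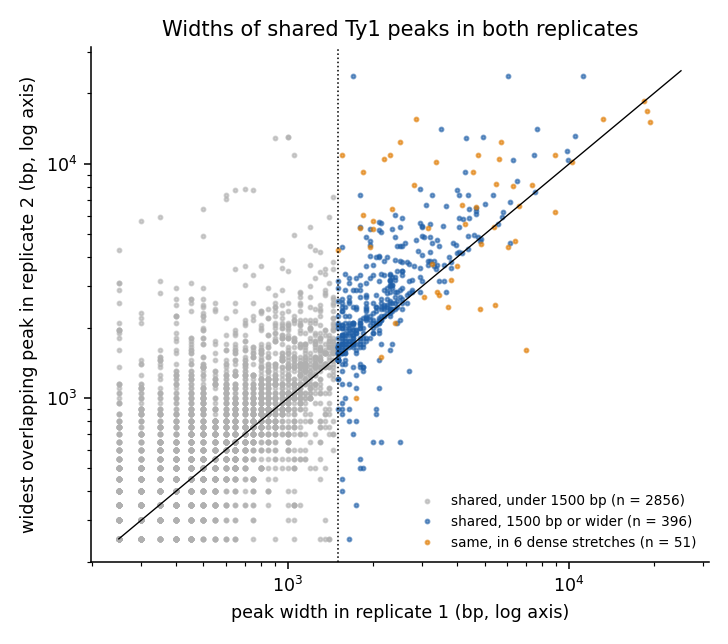
Width of each shared Ty1 peak in replicate 1 (x, bp, log axis) against the widest overlapping replicate 2 peak (y, bp, log axis); the line marks equal widths, the dotted line 1500 bp. Of the 447 wide peaks 400 reach 1500 bp in replicate 2 as well, and the 51 orange points lie in 6 dense stretches of the genome.

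Many of the widest peaks lay in families of repeated genes. Outside these, the widest spanned 11200 bp of the HoxA cluster (chromosome 6, 52215752 to 52226951, GRCm38), from Hoxa7 to Hoxa9, with a second peak of 6050 bp (52229052 to 52235101) at Hoxa9 and Hoxa10 and another of 1700 bp over the start of Hoxa3, with Hoxa6 2980 bp away. In replicate 2 a single peak of 23800 bp overlapped all 3. Next came 10450 bp over the start of Bahcc1, a chromatin reader gene (chromosome 11, 120229502 to 120239951). Then came 9900 bp over Nkx2-3, a homeobox gene of spleen and gut (chromosome 19, 43607102 to 43617001). A peak of 9850 bp covered an annotated start inside Tnrc18, a relative of Bahcc1 (chromosome 5, 142812902 to 142822751). It ended 917 bp from the nearest end of Tnrc18. A peak of 7700 bp lay at Erdr1, a transcribed pseudogene on chromosome X. The high-mobility-group gene Hmga1 carried 6300 bp and Meis1 6150 bp (chromosome 11, 19013852 to 19020001). Gfi1, which encodes a transcriptional repressor active in granulocyte fate decisions, carried 5750 bp.

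A further 51 wide peaks lay in 6 dense stretches, chains of at least 4 with gaps up to 100 kb, a grouping made after the peaks were seen. They included 7 of the 12 widest peaks. One stretch on chromosome 1 (85080452 to 85347001) held 11 of them among predicted genes such as C130026I21Rik and A530032D15Rik, and its neighbour (85485252 to 85626401) held 5 at Sp110 and Sp140, genes of nuclear body proteins. A pair of stretches on chromosome 5 held 12 and 11 at genes of the Speer family, one on chromosome 6 held 8 around Rn4.5s, and one on chromosome Y held 4. Members of such families share sequence, so reads and counts there may be split between copies, and the counts of called genes in each bulk comparison were also computed without these stretches.

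MicroRNA genes also lay near wide peaks. Of 12 microRNA genes within 5 kb of a wide peak, 11 had a mature sequence in the RefSeq table. Mir196b, which lies between Hoxa9 and Hoxa10 and whose product targets HOXA messages, sits inside the 6050 bp peak (mature arm at chr6:52230129-52230150, minus strand), while Mir15b and Mir16-2, a pair that restrains cell cycle genes, lie 2921 and 3051 bp from a peak (chr3:69009775-69009796 and chr3:69009918-69009939, plus strand). Capitals mark the seed, bases 2 to 8, which the last 2 share; their RNA was not analysed here.
miR-196b-5p: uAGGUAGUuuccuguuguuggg
miR-15b-5p: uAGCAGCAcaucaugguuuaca
miR-16-5p: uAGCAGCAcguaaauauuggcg

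Wide peaks lay over gene starts more often than narrower ones and reached both ways from them. Of 434 wide peaks on chromosomes for which starts were used here, 275 covered a start of the RefSeq promoter table (63.4%), against 988 of 2773 narrower shared peaks (35.6%). A wider interval covers a start more easily, and the share was not adjusted for width. Outside the dense stretches the count was 266 of 383 (69.5%), and inside them 9 of 51 (17.6%). Starts on both strands were covered by 74 of the 275 (26.9%) and by 156 of the 988 (15.8%). At 1000 to 1450 bp they were covered by 90 of 286 (31.5%), so this trait is not particular to wide peaks.

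Peak centres of both width classes lay mostly inside the gene. The centre of a wide peak with a start within 5 kb lay a median of 303.5 bp inside the gene (interquartile range -131.5 to 795), and that of a narrower peak 292.5 bp inside (157.5 to 428.5). Centres lay inside the gene for 230 of 331 wide peaks (69.5%) and 2014 of 2305 narrower ones (87.4%). From a covered start, wide peaks ran a median of 756 bp upstream and 1326 bp into the gene, where narrower peaks ran 120 bp and 531 bp. In each peak both reaches together make up its width, which chose the wide peaks, so the longer reach follows from the rule. The plot of cover around the start shows narrower peaks sitting just inside the gene, and wide peaks reaching over the start into the upstream sequence.

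**Figure D2:**
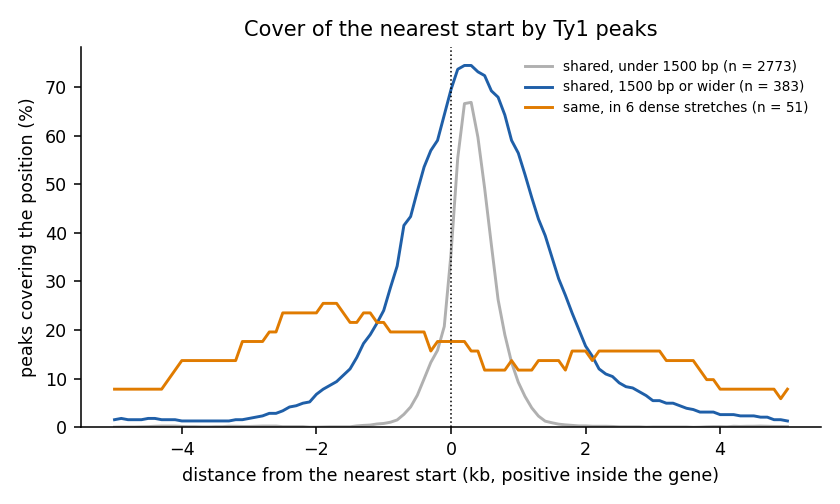
Share of peaks (y, percent) that cover each distance from the nearest annotated start (x, kb, positive inside the gene) for wide shared peaks outside and inside the 6 dense stretches and for narrower shared peaks. At 1000 bp upstream, 24.0% of the 383 wide peaks outside the stretches and 0.793% of the 2773 narrower peaks give cover, and 300 bp into the gene 74.4% and 66.8% do. The cover depends on the width that chose the peaks and was not adjusted for it.

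The covered promoters were rich in CG. Of 365 promoter windows (250 bases before to 50 after the start) that lay wholly in a wide peak, 346 held at least 10 CG dinucleotides (94.8%), with a median of 32, against a median of 35 for the 494 windows wholly in narrower peaks and 7 for all 32851 windows (43.5% with at least 10). The 10 windows inside the dense stretches stood apart with a median of 2.5, and none held 10. A CCAAT box (letters CCAAT, either strand) was in 34.8% of the wide-peak windows, 22.3% of the narrower and 37.4% of all windows. The GC box (GGGCGG, which holds a CG itself) was in 75.9%, 79.4% and 35.7%, and the TATA box (TATAAA) in 2.47%, 2.83% and 13.6%. These matches describe letters, and no binding site was inferred.

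Of the 447 wide peaks, 401 had a gene end within 5 kb, which named 666 genes, 29 of them near more than 1 wide peak. The RNA table matched 467 of these, and 445 passed the filter on low counts, while 16 were under it and 6 had no counts. The other 199 had no row of that name, and most were predicted or non-coding: of 477 protein-coding genes 450 were matched and 441 tested. The 445 tested genes had a median level of 105.5 CPM in MOZ-TIF2, 67.4 in fresh and 78.0 in differentiated cells, against 18.0, 18.4 and 19.9 for all tested genes with a position. Genes near narrower shared peaks only stood at 63.9, 53.0 and 60.2 CPM.

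Genes near wide peaks were more often higher in MOZ-TIF2 than in fresh c-Kit+ cells. These groups also differ by the retrovirus, the sort and 4 days of culture. Of the 445, 131 were higher (29.4%), where 11.3% of all 15224 tested genes were, and 18 were lower (4.04%), where 12.4% of all were (23.7% in either direction). Their median log2 difference was 0.42, against 0.00 over all tested genes. Near narrower shared peaks only, 515 of 3238 were higher (15.9%) and 160 lower (4.94%), with a median of 0.16. Calls were made with the edgeR quasi-likelihood test at an adjusted p of 0.05.

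The calls rested on both fresh libraries. Without fresh replicate 1, 9 of 451 tested genes near wide peaks were called higher (0.507% of all genes) and 1 lower, and without fresh replicate 2, 14 of 451 (0.816% of all genes) and 1. The median log2 difference was 0.53 without fresh replicate 2. Without the 6 dense stretches 131 were higher and 17 lower. Where the mean over the 3 groups reached 50 CPM, 100 of 309 genes near wide peaks were higher (32.4%), 361 of 1903 near narrower peaks and 781 of 4495 with a position (17.4%).

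The share of higher genes was larger in the wider classes of peaks. By the widest shared peak within 5 kb, 14.6% of 1110 genes were higher than in fresh cells at 250 to 450 bp, 16.7% of 1541 at 500 to 950 bp and 16.4% of 587 at 1000 to 1450 bp. It was 25.2% of 222 at 1500 to 1950 bp, 29.7% of 145 at 2000 to 2950 bp and 41.0% of 78 at 3000 bp or more. The step between the classes on either side of 1500 bp is thus followed by further ones.

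**Figure D3:**
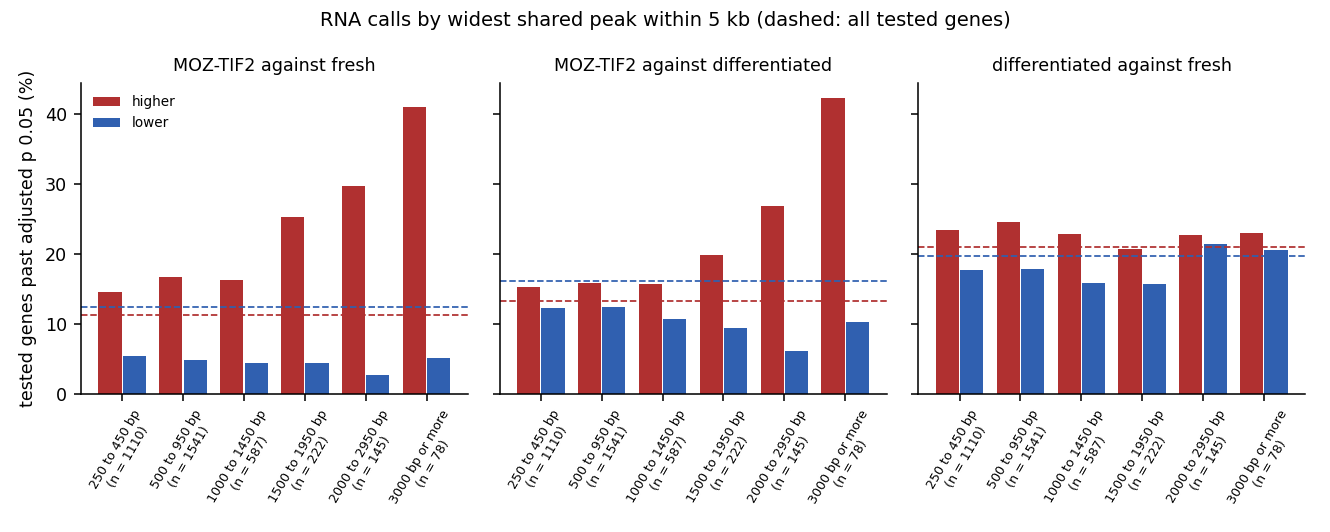
Share of tested genes called higher (red) or lower (blue) in each comparison (y, percent), by the width of the widest shared peak at most 5 kb from either end of the gene (x); dashed lines give the share among all 15224 tested genes. In both MOZ-TIF2 comparisons the share of higher calls is larger in each class from 1500 bp up than in the narrower classes, reaching 41.0% and 42.3%, and the shares stay between 20.7% and 24.6% in differentiated against fresh cells.

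Homeobox genes near wide peaks were among the largest differences. Six4, whose homeobox product works with EYA proteins, read 80.5 and 45.5 CPM in the MOZ-TIF2 libraries, 0.15 and 0.058 in fresh, and 0.096 and 0.31 in differentiated cells (log2 9.25 against fresh, SE 0.70, adjusted p = 0.00146). Both MOZ-TIF2 libraries lay far above the other 4. The wide peak near Six4 (chromosome 12, 73110952 to 73113401) covered its annotated start.

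Nkx2-3 read 37.5 and 28.8 CPM in MOZ-TIF2, 1.25 and 0.70 in fresh, and 0.19 and 0.069 in differentiated cells (log2 5.09 against fresh, SE 0.52, adjusted p = 0.00307). Hoxa9, a driver of myeloid leukaemia, read 224 and 226, 18.4 and 11.3, and 0.048 and 0.66 CPM (3.92, SE 0.62, adjusted p = 0.0104). Hoxa10 read 220 and 105, 1.55 and 1.22, and 0 and 5.08 CPM (6.88, SE 1.56, adjusted p = 0.0276). In all 3 genes the lower MOZ-TIF2 library exceeded every other library, which describes the values behind these calls and adds no support to them. Hoxa10 missed the threshold without MOZ-TIF2 replicate 1 (6.25).

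Of the other 3 HoxA genes near these peaks 1 passed against fresh cells. Hoxa7, whose start the 11200 bp peak covers, read 21.9 and 6.505 CPM in MOZ-TIF2 and 13.1 and 8.32 in fresh cells, which overlap (log2 0.41, adjusted p = 0.681, and -0.71 without MOZ-TIF2 replicate 1). Hoxa3 read 6.96 and 2.22 against 0.52 and 0.58 CPM and did not pass (3.05, adjusted p = 0.0511). It stood at 2.0025 without MOZ-TIF2 replicate 1, and passed without MOZ-TIF2 replicate 2 (3.65, adjusted p = 0.0357) and without either differentiated library (adjusted p = 0.0468 and 0.0465). Hoxa6 read 3.33 and 0.82 against 0.074 and 0.058 CPM and passed (4.89, adjusted p = 0.0367, and 3.54 without MOZ-TIF2 replicate 1, no longer past the threshold). Differentiated libraries had no count of Hoxa3, Hoxa6 or Hoxa7. Against a floor of 3 counts over that group (0.0601 CPM), MOZ-TIF2 cells held at least 236-fold more Hoxa7, 76.3-fold more Hoxa3 and 34.5-fold more Hoxa6. Without MOZ-TIF2 replicate 1 these bounds were 108, 36.9 and 13.6.

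Meis1, the HOXA9 partner, separated the control groups. It read 111 and 66.8 CPM in MOZ-TIF2, 21.5 and 12.5 in fresh, and 100 and 88.7 in differentiated cells. It was higher than in fresh cells (log2 2.39, SE 0.37, adjusted p = 0.0100), and its values overlapped those of differentiated cells (-0.09, adjusted p = 0.876, and 0.23 without MOZ-TIF2 replicate 2).

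Further genes named by the rule were higher in MOZ-TIF2 cells than in both other groups, and 6 are given here. Bahcc1 read 340 and 90.6 CPM, against 15.5 and 11.5 in fresh and 21.8 and 13.4 in differentiated cells (log2 4.00 against fresh, adjusted p = 0.0126), and the MOZ-TIF2 libraries differed between themselves (2.75 without replicate 1 and 4.66 without replicate 2). Tnrc18 read 394 and 297 CPM against 40.8 and 40.9 in fresh and 173 and 101 in differentiated cells (3.08, adjusted p = 0.00370). The chromatin remodeller Chd7 read 176 and 286 against 11.7 and 13.3 in fresh cells (4.21, adjusted p = 0.00491). Igf2bp3, an RNA-binding protein of fetal blood, read 188 and 160 CPM against 2.07 and 5.01 in fresh and 0.24 and 2.32 in differentiated cells (5.60, adjusted p = 0.0111, and 6.39 without fresh replicate 2). Hmga1 stood at 2065 and 1748 CPM against 368 and 460 in fresh and 96.2 and 105 in differentiated cells (2.20, adjusted p = 0.00487). The autophagy gene Atg12 read 1173.5 and 633 against 49.1 and 55.1 CPM in fresh cells (4.12, adjusted p = 0.00219).

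Among 35 myeloid and progenitor transcription factors on a fixed list, 14 lay near a wide peak, and of these 5 rose against fresh cells and none fell, where the whole list had 6 higher and 12 lower. Over all tested genes 11.3% were higher and 12.4% lower, and over genes near wide peaks 29.4% and 4.04%. Gfi1 read 379 and 322 CPM against 27.2 and 34.6 (log2 3.50, adjusted p = 0.00372). The granulocyte-macrophage regulator Cebpb read 144 and 270 against 50.01 and 34.1 (2.30, adjusted p = 0.0114), and Fli1, an ETS factor, 233 and 220 against 69.0 and 81.7 (1.59, adjusted p = 0.00622). Zeb2 (1.15) and Elf1 (1.00) were the others that rose. In each of these 5, taken because they passed, both MOZ-TIF2 libraries lay above both fresh ones. How often this holds over all tested genes was not counted, so it adds no support. The remaining 9 did not pass: Cebpa (0.88), Cebpd (0.99), Etv6 (0.59), Lyl1 (0.71), Myb (0.84), Sox4 (-0.02), Hhex (-0.69), Ikzf1 (-0.64) and Tal1 (-1.90). Tal1 was called lower without MOZ-TIF2 replicate 1 (-3.82, adjusted p = 0.00329 in edgeR) and without replicate 2 (-1.10, adjusted p = 0.0471).

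**Figure D4:**
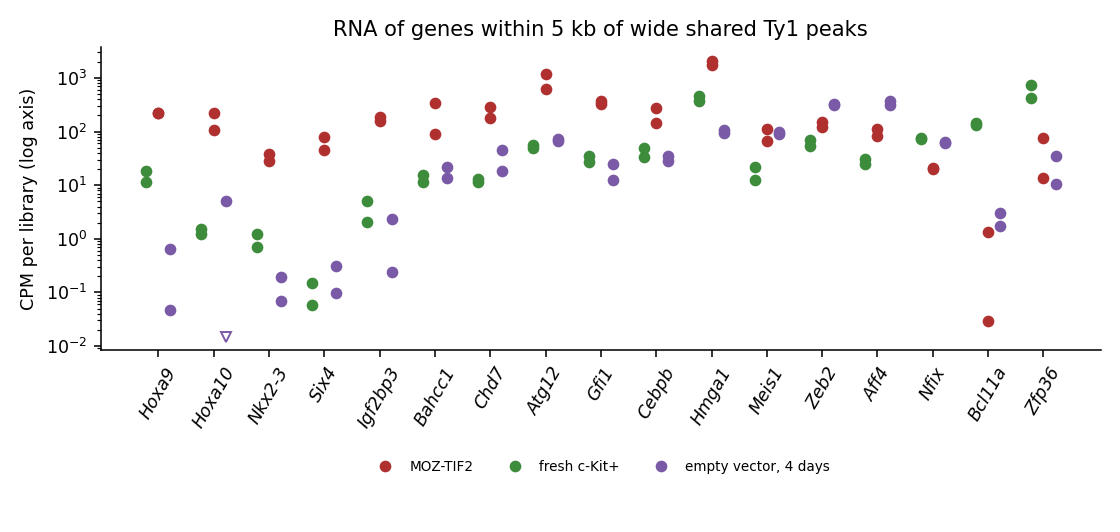
CPM in each of the 6 bulk libraries (y, log axis) for 17 genes within 5 kb of a wide shared peak (x); each point is a library, and the open triangle marks the Hoxa10 library without counts. From Hoxa9 to Hmga1 both MOZ-TIF2 points lie above the other 4, while Meis1, Zeb2 and Aff4 overlap or fall below the differentiated libraries and Nfix, Bcl11a and Zfp36 lie below the fresh ones.

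Few genes near wide peaks were lower than in fresh cells. Bcl11a, a repressor of fetal globin needed for lymphoid cells, had a 4000 bp peak over its start and read 1.34 and 0.029 CPM in MOZ-TIF2 against 133 and 143 in fresh cells (log2 -7.63, SE 1.15, adjusted p = 0.00929). It was low in differentiated cells as well, at 3.01 and 1.76 CPM. The value was -11.96 without MOZ-TIF2 replicate 1 and -6.68 without MOZ-TIF2 replicate 2. Zfp36, whose product degrades inflammatory messages, read 13.7 and 76.8 against 740 and 428 CPM (-3.69, adjusted p = 0.0413, -2.92 and no longer past the threshold without MOZ-TIF2 replicate 1, and -5.41 without MOZ-TIF2 replicate 2). Zfp36 belongs to a fixed list of 20 immediate early genes, of which 10 were lower than in fresh cells (12.4% of all tested genes) and none higher. The single-stranded DNA binding protein gene Ssbp2 fell by 2.44 and the MHC class II chaperone gene H2-DMa by 2.08 on the log2 scale. The nuclear factor gene Nfix fell by 1.85. Hspbp1 (-1.73), Plekhg2 (-1.69) and Macir (-1.59) complete the 8 largest falls, and of all 8 only Nfix was also lower than in differentiated cells. H2-DMa missed the threshold without either MOZ-TIF2 library, and Plekhg2 without MOZ-TIF2 replicate 1.

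Of the 29 named genes called in this comparison, 4 (Atg12, Nfix, Nkx2-3 and Six4) were also called when fresh replicate 1 was left out, and the same 4 when fresh replicate 2 was left out. Without MOZ-TIF2 replicate 1 it was 22 of the 29, and without MOZ-TIF2 replicate 2 it was 23. A fit with a lone fresh library assumes that it varies like the other groups.

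Against empty-vector cells kept in the same medium, genes near wide peaks were again more often higher in MOZ-TIF2 cells. Of the 445, 116 were higher (26.1%; 13.3% of all tested genes) and 38 lower (8.54%; 16.2%), where 29.5% of all were called in either direction, with a median log2 difference of 0.37 against 0.03 over all tested genes. Near narrower peaks only, 507 of 3238 were higher (15.7%) and 390 lower. The median log2 difference was 0.35 without fresh replicate 1 and 0.37 without fresh replicate 2. In both fits fewer genes were called in either direction, near wide peaks as well as over all tested genes. These comparisons share the MOZ-TIF2 libraries with those against fresh cells, so their calls are not independent. The share by width went from 15.3% at 250 to 450 bp through 19.8% at 1500 to 1950 bp to 42.3% at 3000 bp or more.

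The genes with the largest rises against differentiated cells were in part those already named, with Six4 at log2 8.16 (adjusted p = 0.000658), Nkx2-3 at 8.01 (adjusted p = 0.000676) and Hoxa9 at 9.19 (adjusted p = 0.00102). Differentiated replicate 2 held most of the counts of several of these, and without it Hoxa9 stood at 12.06, Six4 at 9.29 and Igf2bp3 at 9.48 in place of 7.02. Without differentiated replicate 1 they stood at 8.40, 7.63 and 6.22. Plppr3, a gene of a membrane phosphatase-like protein, read 168 and 177 CPM against 0.14 and 1.00 (8.14), and the potassium channel gene Kcnk12 read 33.0 and 23.2 against 0 and 0.35 (7.18). Without differentiated replicate 2 these stood at 10.18 and 12.43, and without replicate 1 at 7.41 and 6.32. Nkx2-3 stood at 7.40 without differentiated replicate 2 and at 8.80 without replicate 1. Gfi1 (4.21), Hmga1 (4.24) and Cebpb (2.70) rose as well.

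Primary granule genes of promyelocytes lay near 3 wide peaks, one near Mpo, one over the start of Ctsg and one inside Prtn3, 4061 bp from Elane. Prtn3, for proteinase 3, read 2141 and 1258 CPM in MOZ-TIF2, 733 and 979 in fresh and 0.48 and 36.1 in differentiated cells (log2 6.53 against differentiated, adjusted p = 0.0359). Ctsg, for cathepsin G, read 2753 and 1018, 369 and 455, and 21.1 and 55.7 CPM (5.62, adjusted p = 0.00388). Mpo (7.01, adjusted p = 0.0666) and Elane (6.78, adjusted p = 0.0540) did not pass, with 0.096 and 99.9 CPM of Mpo in the differentiated libraries. None of the 4 passed against fresh cells, but Ctsg (2.20, adjusted p = 0.0529) did without either differentiated library (adjusted p = 0.0407 and 0.0401 in edgeR) and without MOZ-TIF2 replicate 2 (2.75, adjusted p = 0.0309), and stood at 1.31 without MOZ-TIF2 replicate 1. Against differentiated cells Ctsg ran from 4.72 without MOZ-TIF2 replicate 1 to 6.48 without differentiated replicate 2. Prtn3 missed the threshold without MOZ-TIF2 replicate 1 (6.09) and without either fresh library, and it stood at 11.78 without differentiated replicate 2.

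The 38 lower genes included several that differentiated cells had raised over fresh ones. Lratd2 read 8.60 and 12.1 CPM in MOZ-TIF2 against 152 and 195 in differentiated cells (log2 -4.07, adjusted p = 0.000494), with 6.12 and 6.87 in fresh cells. Tal1, a master regulator of blood stem and erythroid cells, read 79.3 and 12.1 against 639 and 633 (-3.80, adjusted p = 0.0202, -5.72 without MOZ-TIF2 replicate 1 and -3.003 without replicate 2). The cytokine gene Flt3l fell by 2.86 (-3.53 without MOZ-TIF2 replicate 2) and Sgsm2 by 2.35 on the log2 scale. Nrm (-2.18, and -1.55 without differentiated replicate 2), the ubiquitin ligase gene Fbxw7 (-1.91), the elongation factor gene Aff4 (-1.84) and Mindy1 (-1.71) were the others named. Aff4, Mindy1 and Zeb2 lay between the other groups, above fresh and below differentiated cells, each past the threshold; Mindy1 and Zeb2 missed it against fresh cells without MOZ-TIF2 replicate 2. Of the 33 named genes called against differentiated cells, 25 to 31 were called with any 1 library left out. Those lost in at least 1 such fit were Bahcc1, Bcl2l11, Hoxa6, Hoxa10, Myc, Prtn3, Sp140, Tal1, Tnrc18 and Zeb2.

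Combining both comparisons, 62 of 445 genes near wide peaks were higher in MOZ-TIF2 cells than in fresh and in differentiated cells (13.9%), against 588 of 15224 tested genes (3.86%). They include Hoxa9, Hoxa10, Six4, Nkx2-3, Igf2bp3, Gfi1, Cebpb, Hmga1, Bahcc1, Tnrc18 and Chd7. The histone methyltransferase gene Setd1b (2.14 against fresh), the Polycomb partner Jarid2 (1.34), the forkhead factor Foxp1 (1.65) and the growth factor gene Vegfa (3.12) belong to them too, named after their values were seen. Only 5 were lower than both, Nfix, Mettl23, Nrm, Gid8 and Pitpnc1, against 780 of all (5.12%).

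Differentiated cells, which also differ from fresh cells by the empty vector and the sort, differed from them in these genes about as often as in others. In differentiated against fresh cells 97 of 445 were higher (21.8%; 21.0% of all tested genes) and 82 lower (18.4%; 19.7%), where 40.7% of all were called in either direction, with a median of 0.04 against -0.03. Hoxa9 fell by 5.26 on the log2 scale (adjusted p = 0.00420) and Nkx2-3 by 2.92 (adjusted p = 0.0131), while Meis1 rose by 2.48 (adjusted p = 0.00524), Zeb2 by 2.35 and Aff4 by 3.65. Counts were 19 higher and 16 lower of 451 without fresh replicate 1 (4.57% and 3.21% of all genes), 25 and 15 without fresh replicate 2 (5.85% and 3.76%), and 65 and 45 without differentiated replicate 1 (12.8% and 9.95%). Hoxa9 stood at -8.13 without differentiated replicate 2 and at -4.47 without replicate 1.

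Fixed gene lists were set against the wide peaks, where 445 of all 14717 tested genes with a position lay near one. Besides the transcription factors, 5 of 11 HOXA genes lay near them. Of the 5, 3 rose against fresh cells (11.3% of all tested genes) and all 5 against differentiated cells (13.3%). Over the 9 tested genes of the whole HOXA list, 5 rose against fresh cells and 8 against differentiated cells, and none fell. Of 22 genes of the MYC network and G1 phase 4 lay near (Myc, Cdk6, E2f3, Cdkn1b) and none passed against fresh cells, with Myc at 191 and 288 against 248 and 205 CPM. Of 25 MOZ complex and chromatin genes 4 lay near, and the acetyltransferase gene Ep300 rose (1.55, adjusted p = 0.0437, which missed the threshold without MOZ-TIF2 replicate 2), while Brd1 (0.74), Dot1l (0.37) and Ing5 (-0.02) did not pass. Both fetal-programme genes near a wide peak, of 8 on that list, rose. Of the 7 tested on the whole list, 4 rose against fresh cells and 1 fell, and 5 rose against differentiated cells and none fell. No gene of the lists of 16 cytokine receptors, 21 ribosomal proteins, 13 mast cell, 12 erythroid, 10 B lymphoid, 8 megakaryocyte or 10 monocyte markers lay within 5 kb of a wide peak. At the share over all tested genes, lists of this length may hold none, and avoidance of these groups was not tested.

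Genes near wide peaks were also read in single MOZ-TIF2 cells after benzarone. Each condition was 1 sample, and day 5 was a single sample of both treatments whose cells the authors assigned, so there is no test, and values are summed UMIs as CPM over the listed genes with counting intervals (95%). On day 1 none of 423 listed genes near wide peaks was 1.5 times higher or lower (all listed genes 0.879% and 0.921%). On day 5, 62 of 437 were higher (14.2%; all 25.1%) and 157 lower (35.9%; all 28.4%), with a median log2 ratio of -0.34 against -0.11 over all listed genes. The table of days 1 and 3 holds 2538 cells with 2535 distinct barcodes and that of day 5 holds 3158 cells, and 9 barcodes are in both.

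On day 5 Meis1 read 2.41 CPM in benzarone and 26.3 in DMSO cells (ratio 0.0917, interval 0.0719 to 0.116), after 31.7 and 31.3 on day 1. Mpo read 88.0 and 1890 CPM (0.0466). Bcl11a (0.119), Ssbp2 (0.104), Gfi1 (0.271), Bahcc1 (0.256), Hoxa7 (0.294), Hoxa9 (0.403) and Six4 (0.453) were lower as well. Nkx2-3 (0.685), Igf2bp3 (0.873) and Chd7 (0.966) stood nearer to DMSO cells. Zeb2 (3.33), the apoptosis gene Bcl2l11 (3.15), H2-DMa (2.40) and Cebpb (1.79) were higher in benzarone. Cell type markers differed on that day too: 8 granulocyte-monocyte progenitor markers summed to 1673 CPM in benzarone and 10693 in DMSO cells, 9 listed monocyte and macrophage markers to 1001 and 201.5, and 4 listed platelet markers to 7446 and 217.9. The 7 listed stem and early progenitor markers, a list that holds Meis1, summed to 430 and 81.7. On day 1 the 2 listed platelet markers already differed, at 144 and 38.8 CPM. Their part in the ratios was not tested. Median UMIs per cell were 19763 and 24575.5 on day 5.

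**Figure D5:**
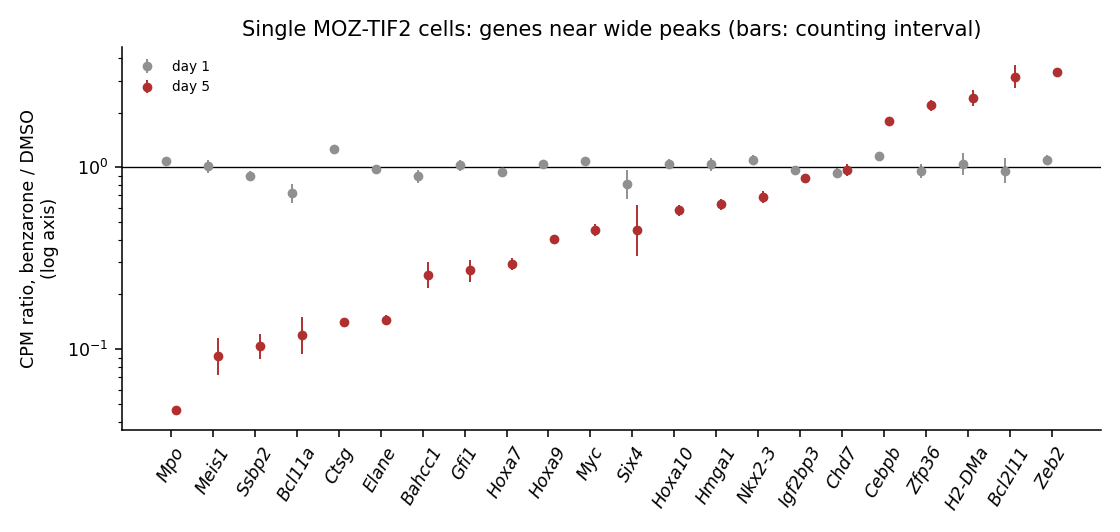
Ratio of CPM in benzarone to DMSO (y, log axis) for 22 genes within 5 kb of a wide shared peak (x) on day 1 (grey) and day 5 (red); bars are counting intervals, 1 sample a condition. Day 1 points stay within 1.5 times of equal, and day 5 points run from 0.0466 for Mpo to 3.33 for Zeb2.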

How the data were processed

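Peak lists of 2 Ty1 ChIP samples, 6 bulk RNA libraries and single-cell tables were used, grouped by the sample labels. The peak lists hold intervals without scores, and the peak caller is not given in the sources used here. The submitters' processing notes name Bowtie2, GRCm38 and mm10, Salmon 0.13.0 and Cell Ranger 3.0.0. Ends lie on a 50 bp grid, so starts are open by 1 bp, and they are printed as counted from 1. The bulk table holds estimated counts per gene as deposited, and the single-cell tables hold whole UMI counts as deposited, per the labels, for part of the genes. No column of the bulk table was left unmapped.

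A gene counted as near when either end lay within 5 kb of a peak (RefSeq, GRCm38.p6), and 96.7% of tested genes had a position. Starts on chromosome 18 (13 wide peaks) were not used here. Estimated counts were rounded, filtered with filterByExpr, scaled by TMM and fitted over 3 groups with the edgeR 4.0.16 quasi-likelihood F test in R 4.3.3 (two-sided, Benjamini-Hochberg over all genes), tested on simulated data. DESeq2 1.42.0 was an alternative. Group values are means ± SD over libraries. Counting intervals and floors cover counting error only. No cell was removed, and no doublet caller or clustering was run. Peaks, gene lists and tests were chosen with earlier results of these data known. Genes were named by a rule: those near the 12 widest peaks, and those near a wide peak and of the HOXA, TALE cofactor or retinal determination lists. The rule also took the 8 largest rises and falls against each group, and up to 4 genes of each other list. These rises and falls had to pass the test, reach 10 CPM in the higher group and show no overlap between the groups. Other genes near wide peaks either complete a list or a count that is given in full, or are said to be named after their values were seen. The result of 1 gene that the rule names is not reported here.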

Additional observations from a re-analysis of the deposited data

How the results depend on the processing

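The main limits are 2 libraries a group, peak lists without scores, and few counts of low genes. Leaving out the dense stretches, minimums of 10 and 50 CPM, and peaks taken without replicate 2 were alternatives chosen after seeing the data. Wide shared peaks numbered 932 at 1000 bp, 253 at 2000 bp and 736 when replicate 2 supplied the widths. Genes near them numbered 1475 and 367 at those widths and 1813 within 50 kb. Against fresh cells, higher genes numbered 227 at 1000 bp and 75 at 2000 bp (9 to 136 with 1 library left out). Lower genes numbered 44 and 8 at those widths, 67 within 50 kb, 45 with DESeq2 and 6 at a mean of 50 CPM (1 to 19 with 1 library left out). The median log2 difference ran from 0.375 to 0.535 with 1 library left out. Against differentiated cells, higher genes numbered 208, 72 and 187 within 50 kb (69 to 112 with 1 library left out). Lower genes numbered 101, 17, 106 within 50 kb, 22 in a fit of these 2 groups alone and 24 at a mean of 50 CPM (16 to 33). The median ran from 0.30 to 0.40. In differentiated against fresh cells, higher genes numbered 231, 51 and 193 (19 to 105) and lower genes 175, 47 and 176 (15 to 101), with medians from 0.00 to 0.05. At other widths and distances other genes enter, so those counts rest on lists of other sizes and are given without a share. For the rest the cause was not tested. The 22 lower genes of the 2-group fit were 4.97% of 443, against 12.6% of all genes. With DESeq2 the 45 lower than in fresh cells were 10.1%, against 17.2% of all. At a mean of 50 CPM, the 6 and 24 lower genes were 1.94% and 7.77%, against 7.92% and 18.7% of those with a position. Without the use of replicate 2, 132 were higher and 19 lower than in fresh cells.

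Replicate numbers carry no stated pairing. Deviations of same-numbered libraries correlated at -0.0759, -0.0513 and -0.00819 over 15224 genes. With the replicate number as a block, 90 genes were higher and 10 lower than in fresh cells (6.12% and 7.64% of all genes), 91 and 22 than in differentiated cells (8.90% and 12.7%), and 76 and 56 in differentiated against fresh cells (16.6% and 14.1%). The block turned the difference from fresh cells for Erdr1 (-0.40) and Ing5 (0.0105), and Fbxw7 turned with RLE factors (-0.0041) and DESeq2 (-0.0056).

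Of the values of single genes under an alternative, 29 changed sign, all for genes that were not called in that comparison. With 1 library left out, log2 differences from fresh cells ran from -0.93 to 3.98 for A530032D15Rik, -0.71 to 1.04 for Hoxa7, -1.84 to 0.89 for Erdr1, -0.25 to 0.35 for Myc, -0.36 to 0.74 for Elane, -0.26 to 0.25 for Ing5, -0.0105 to 0.18 for Sgsm2, -0.21 to 0.28 for Fbxw7 and -0.15 to 0.98 for Cdkn1b. Against differentiated cells they ran from -0.39 to 2.34 for Erdr1, -0.50 to 0.23 for Meis1, -0.74 to 2.10 for Zfp36 and -0.69 to 0.32 for Ep300. In differentiated against fresh cells they ran from -3.76 to 0.19 for C130026I21Rik, -8.08 to 1.89 for Hoxa10, -1.78 to 0.0011 for H2-DMa, -0.0352 to 1.80 for Six4, -0.44 to 0.0284 for E2f3 and -0.46 to 0.0371 for Ing5. Of these changes of sign only that of Hoxa10 passed the threshold (adjusted p = 0.0234, edgeR, without differentiated replicate 2).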

Other observations

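Not every wide peak lay near the end of a gene. Of the 447 wide shared peaks 46 had no gene end within 5 kb, 14 of them in the dense stretches and 32 outside. Of these 32, 12 covered an annotated start inside a longer gene, 8 lay elsewhere in a gene body and 12 between genes. The 12 genes with such an internal start, named after their values were seen, were Mbnl1 (peak of 2650 bp), Tmpo, Jade1, Usp7, Rreb1, Larp1, Mllt10, Zfp800, Kansl1, Aff1, Phip and Stag1 (1500 bp). They did not enter the 666 genes above.

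By the edgeR quasi-likelihood test over all genes, 5 of these 12 exceeded fresh cells in MOZ-TIF2 cells and none was lower, and 3 exceeded differentiated cells and none was lower. Over all tested genes 11.3% were higher and 12.4% lower than in fresh cells, and 13.3% and 16.2% than in differentiated cells. Aff1, a partner gene of MLL fusions and part of the super elongation complex, read 434 ± 80.7 CPM in MOZ-TIF2, 72.4 ± 16.3 in fresh and 146 ± 44.4 in differentiated cells (SD, n = 2 each; log2 2.58 against fresh, adjusted p = 0.00589, and 1.57 against differentiated, adjusted p = 0.0152). Mbnl1, a splicing regulator, read 1979 ± 47.6 against 471 ± 124 in fresh cells (2.07, adjusted p = 0.00898), and did not pass against differentiated cells (0.76). Rreb1 (1.85), Phip (1.54) and Kansl1 (1.12) were the others higher than in fresh cells. Usp7, a deubiquitinase gene, and Larp1, an RNA-binding protein gene, rose against differentiated cells, by 0.96 and 1.39 on the log2 scale, and did not pass against fresh cells. Mllt10, another fusion partner in leukaemia, did not pass in either comparison (0.59 and 0.62).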
